A study of Mus musculus with 2 samples.

Results

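The genes described here are 9 transcription factor genes of the growing hair follicle: Msx1, Msx2, Foxn1, Dlx3, Dlx4, Gata3, Ovol1, Cux1 and Sox21. They were listed by name for their roles in the hair matrix, the hair shaft and the inner root sheath, with no threshold on their values. The list was made with earlier results of these data known. All 9 were among the 24421 gene symbols of the count table, and all had more than 3 counts in both libraries. The table compares 1 library of whole-layer skin stretched for 5 days at 33% strain with 1 library of day 5 skin that was not stretched (control). Both came from wild-type C57BL6/J mice, which were female and 8 weeks old, and the strain was given by a device glued to the back, which per the methods was widened further each day from the initial strain. Neither the number of mice behind each library nor the position of the skin piece on the back is given in the sources used here. With 1 library per condition, no difference has a replicate check and no p-value can be given.

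Hair follicles pass through growth (anagen), regression (catagen) and rest (telogen). In anagen the matrix, a pool of dividing cells that wraps the dermal papilla at the base of the follicle, feeds the hair shaft and the inner root sheath that moulds it. WNT, BMP and Notch signals lead matrix cells into these lineages through transcription factors such as the ones listed here. MSX1, MSX2, DLX3 and DLX4 are homeodomain proteins, FOXN1 is the forkhead factor lost in nude mice, and MSX2 acts upstream of Foxn1 in the shaft. GATA3 and CUX1 serve the inner root sheath, OVOL1 is a zinc finger repressor downstream of WNT signals, and SOX21 serves the shaft and its cuticle. None of these genes is restricted to the matrix. Gata3, for example, is also a gene of T cells and of the epidermis, and Cux1 is expressed in most tissues.

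The upstream sequences of Msx1 and Foxn1 are shown as the context of these genes, chosen because their windows hold no annotated exon. RefSeq promoters on GRCm38.p6, the mm10 assembly, were found for 6 of the 9 genes (Msx1, Msx2, Foxn1, Gata3, Cux1 and Sox21). Only in Msx1 and Foxn1 did the 250 bases before the start lie wholly outside the exons of GENCODE M21. The Msx1 sequence is chr5:37824586-37824835 and the Foxn1 sequence is chr11:78386609-78386858, both on the minus strand. Capitals mark CCAAT, the box from which CUX1 took its name CCAAT displacement protein, and TAATT, a core of homeodomain sites, on either strand.
Msx1: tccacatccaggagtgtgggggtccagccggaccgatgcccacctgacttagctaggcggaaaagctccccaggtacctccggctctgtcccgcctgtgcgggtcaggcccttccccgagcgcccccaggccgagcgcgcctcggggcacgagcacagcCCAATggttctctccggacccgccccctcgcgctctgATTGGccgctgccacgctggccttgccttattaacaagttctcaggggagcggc
Foxn1: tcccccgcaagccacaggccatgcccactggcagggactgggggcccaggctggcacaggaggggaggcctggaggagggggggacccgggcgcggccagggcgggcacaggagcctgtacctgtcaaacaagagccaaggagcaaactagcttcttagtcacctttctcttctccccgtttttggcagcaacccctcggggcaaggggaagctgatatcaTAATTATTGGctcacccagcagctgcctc
Msx1 held 2 CCAAT boxes, and Foxn1 held 2 overlapping TAATT matches, 1 on each strand, and 1 CCAAT box within its last 29 bases. The CCAAT box shares 1 base with the TAATT match on the reverse strand and adjoins the other. Counted over the 250 bases before the start of 27025 genes, 34.5% held CCAAT and 25.4% held TAATT. Of the 6 promoters of these transcription factors, 3 held CCAAT (with Msx2) and 2 held TAATT (with Msx2). The 3 other cores searched on both strands were GATAA of GATA sites, with 0 of 6 against 23.0% of all promoters, ACAAT of SOX sites, with 1 of 6 against 28.3%, and CTTTG of LEF1 and TCF sites, with 2 of 6 against 48.8%. The matches describe these windows and do not show binding. The 6 windows were GC-rich, between 61.6% and 70.0% against a median of 52.0% for all promoters.

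The control library held 14152379 counts and the stretched library 11648655. After scaling counts to an equal total (CPM), 3 counts, taken as the floor of detection, correspond to 0.212 CPM in control skin and 0.258 CPM after stretch. The label of a matrix gene set was checked against genes that mark the products of the matrix. The methods describe mice in telogen, from which animals with patches of anagen were left out, and the labels give no hair cycle stage. Both libraries nonetheless held reads of inner root sheath and shaft keratins, which are made by growing follicles. The 9 inner root sheath genes made up 1.37% of control counts and 0.231% of counts after stretch, and the 15 hair shaft keratins 0.181% and 0.0180%. Krt71, an inner root sheath keratin, fell from 60382 counts to 8796. The 2 pieces of skin therefore differed in the RNA of growing follicles, and in whole skin fewer cells of a type and less RNA per cell cannot be told apart.

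Each of the 9 transcription factor genes had a lower level after stretch, as did 61.5% of all genes measured, and the Poisson intervals of the libraries overlapped for none of the 9. The fold changes are ratios of CPM, each with the exact 95% Clopper-Pearson interval of the stretched share of its reads, which covers counting error only. For these 9 the median log2 fold change was -1.48, against -0.12 for the 16255 genes that exceeded the floor in either library. The interval lay wholly below 0 for 9 of the 9 genes, whereas it did so for 33.5% of all 16255 genes and lay wholly above 0 for 18.1%. It lay wholly past a 2-fold fall for 4 of the 9 genes (Msx1, Msx2, Foxn1 and Dlx3) and for 1.96% of all genes. Such shares also depend on read depth. The 9 genes had between 95 and 3476 control counts, whereas the 16255 genes include some just above the floor. The summed counts of the 9 genes went from 14457 to 5324. The rule in the methods asks for a fold change of at least 2. It also asks that the product of the FPKM values of both libraries (EV) be above 10. FPKM is CPM per kilobase of exon, and 1 was added here to each FPKM, for both the EV and the fold change. By this rule 5 genes were downregulated (Msx1, Msx2, Foxn1, Dlx3 and Sox21) and 0 were upregulated. Of the 9 genes 8 passed the EV filter, and the same rule called 2.44% of 10911 genes downregulated and 2.61% upregulated.

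**Figure D1:**
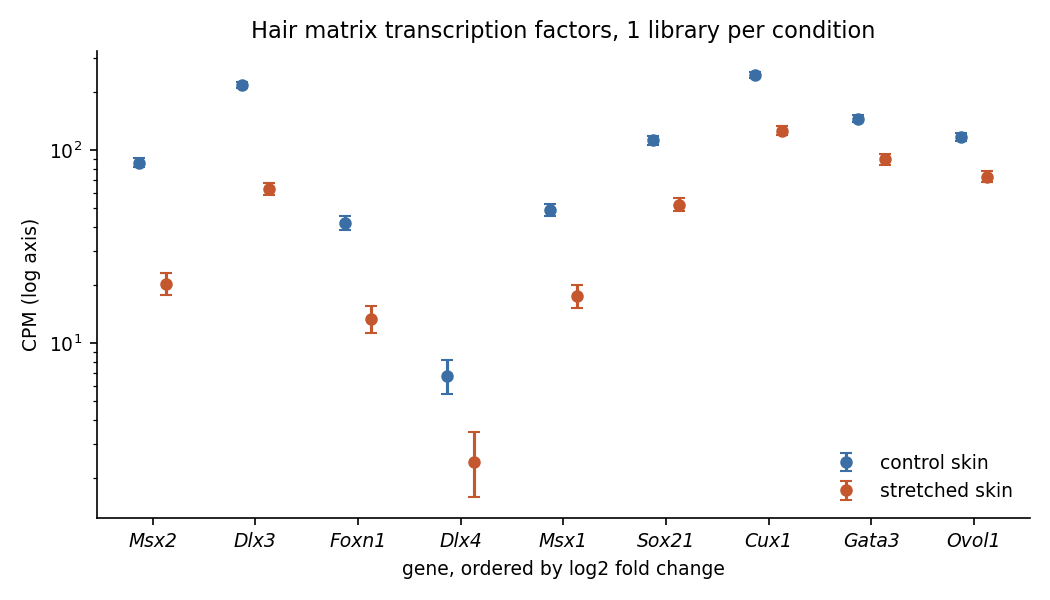
CPM of the 9 transcription factor genes (log axis) in control skin (blue) and stretched skin (orange), 1 library each, with exact 95% Poisson intervals of the counts. Every gene was lower in stretched skin, from Msx2 (86.1 and 20.2 CPM) on the left to Ovol1 (117.3 and 72.8 CPM) on the right.

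Msx2 had the largest fall of the 9 genes. It lies on chromosome 13 from 53466884 to 53473074 in GENCODE M21 and had 1219 counts without strain and 235 with it. Its level was 86.1 CPM (Poisson interval 81.4 to 91.1) in control skin and 20.2 CPM (17.7 to 22.9) in stretched skin. The log2 fold change was -2.09 (interval -2.30 to -1.89), or 4.27-fold lower, and only 1.19% of all genes had a lower value.

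Msx1, its paralog on chromosome 5 from 37820485 to 37824583, had 691 and 204 counts. The log2 fold change was -1.48 (interval -1.71 to -1.25), a fall smaller than that of Msx2 by 0.61 on the log2 scale (interval of the difference -0.92 to -0.30). RefSeq places an antisense gene, Msx1os, within Msx1 from 37820564 to 37822751. Msx1os was counted on its own with 544 and 129 counts (log2 fold change -1.80, interval -2.08 to -1.52). The TruSeq v2 kit does not keep the strand, so reads in the shared stretch cannot be assigned to either gene by strand, and the sum of both genes gave -1.61.

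Foxn1, on chromosome 11 from 78357577 to 78386558, had 592 control counts and 155 after stretch. Its log2 fold change was -1.65 (interval -1.92 to -1.39), between those of Msx2 and Msx1. The difference between Msx2 and Foxn1 was -0.44 with an interval that excluded 0 (Msx2 lower, -0.77 to -0.11), whereas the interval of the difference between Foxn1 and Msx1 included 0 (-0.52 to 0.18). RefSeq also places non-coding genes over Msx2 (Gm33763) and Foxn1 (Gm30367), and GENCODE places Dlx4os over Dlx4, none of which is among the symbols of the table used here.

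Dlx3, a homeodomain gene needed for both shaft and inner root sheath, had the highest FPKM of the 9 genes in control skin. It lies on chromosome 11 from 95120119 to 95125296 and fell from 3081 counts to 734. The log2 fold change was -1.79 (interval -1.91 to -1.67), or 3.45-fold lower. Dlx4, its neighbour on the same chromosome from 95140447 to 95146263 on the opposite strand, had 95 and 28 counts. It had the fewest reads of the set, and its log2 fold change of -1.48 carried the widest interval (-2.14 to -0.86). The difference between the neighbours was -0.31 with an interval that included 0 (-0.94 to 0.37). Dlx4 did not pass the EV filter, with an EV of 5.30.

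Sox21, a gene of a single exon on chromosome 14 from 118233232 to 118237030, had 1588 counts without strain and 608 with it. The log2 fold change was -1.10 (interval -1.24 to -0.97). Its call rests on the scaling, since Sox21 was the 1 gene of the 5 that lost its call with TMM, median of ratios, upper quartile or totals that leave out the top 50 genes. Of its exonic bases 18.8% lie in exons of Gm4675 on the other strand, which is not among the symbols of the table used here.

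Cux1, on chromosome 5 from 136248135 to 136567490, had 3476 and 1470 counts, the most reads of the set. The log2 fold change was -0.96 (interval -1.05 to -0.87), short of 2-fold. Its 34 merged exons span 20024 bases and 14 annotated transcripts, and a table of counts per gene does not separate these products.

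Gata3 and Ovol1 had the smallest falls. Gata3, on chromosome 2 from 9857078 to 9890034, had 2055 and 1042 counts, which gave -0.70 on the log2 scale (interval -0.81 to -0.59). Ovol1, on chromosome 19 from 5549136 to 5560646, had 1660 and 848 counts (-0.69, interval -0.81 to -0.57). They were 1.62-fold and 1.61-fold lower, and neither was called. The difference between these genes was -0.01 with an interval of -0.17 to 0.15. Of the exonic bases of Ovol1, 22.0% lie in exons of other annotated genes, most of them in the pseudogene Gm31166 on the other strand. For Gata3 the share was 5.83%, and 4930412O13Rik, which lies within Gata3 on the other strand but shares no exonic base with it, had 248 and 131 counts (-0.64, interval -0.96 to -0.33).

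**Figure D2:**
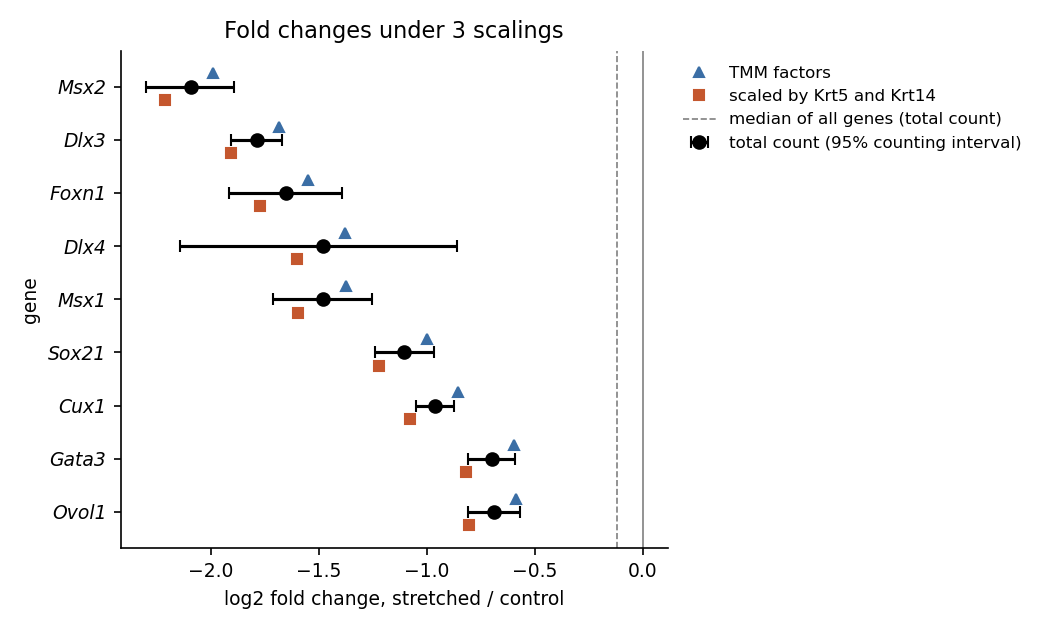
Log2 fold changes (stretched over control) of the 9 genes with 95% counting intervals (black), and the same values scaled by TMM (blue triangles) or by the summed counts of Krt5 and Krt14 (orange squares). All values lie below 0 and below the median of all genes by total count (-0.12, dashed). A scaling shifts every gene by the same amount, so the order of the genes cannot change.

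The 9 genes did not fall by the same amount. The ratio of 2 genes within a library does not depend on the scaling, and for 26 of the 36 pairs the interval of the difference in log2 fold change excluded 0 (each at 95%, with no adjustment for the number of pairs). Msx2 was lower than 7 of the other genes in this comparison, the exception being Dlx4 (interval of the difference -1.27 to 0.08). Gata3 and Ovol1 each fell less than the other 7 genes, with every interval excluding 0. Cux1 and Sox21 did not differ detectably (-0.31 to 0.02). Of the 10 pairs whose interval included 0, 6 involved Dlx4, the gene with the fewest reads.

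Per length of the union of exons, the order of levels was the same in both libraries for all genes but Cux1. In control skin Dlx3 had 83.5 FPKM, followed by Gata3 (36.5), Ovol1 (33.6), Sox21 (29.5), Msx2 (26.3), Msx1 (15.8), Foxn1 (13.02), Cux1 (12.3) and Dlx4 (2.05). The counting intervals of Gata3 and Ovol1 overlapped in that library, as did those of Foxn1 and Cux1. In stretched skin Dlx3 (24.2 FPKM), Gata3 (22.5) and Ovol1 (20.9) came first, with overlapping intervals between neighbours. Sox21 (13.7) was next, then Cux1 (6.30), Msx2 (6.15) and Msx1 (5.65), again with overlap between neighbours. Foxn1 (4.14) and Dlx4 (0.735) came last. Dlx3 thus stood well above Gata3 in control skin but not in stretched skin, and Cux1 moved from the eighth place to the fifth. The order depends on the length used. Per length of the longest transcript, Dlx3 was first in control skin (83.5 FPKM). In stretched skin it (24.2) came after Gata3 (27.8) and Ovol1 (24.5), and Msx2 moved from the fourth place to the seventh. The stretched intervals of Dlx3 (22.5 to 26.0) and Ovol1 (22.9 to 26.2) overlapped, however. Those of Msx2 (7.21 to 9.35) and Msx1 (7.85 to 10.4), which came sixth, overlapped too.

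The same counts were set against the reads of other compartments of the skin. Krt5 and Krt14, keratins of basal keratinocytes, had 61216 and 38376 control counts, and 50601 and 38380 after stretch. Relative to their sum, all 9 genes were lower in stretched skin with intervals below 0, from -2.21 for Msx2 to -0.81 for Ovol1 on the log2 scale. The 8 measured genes of the interfollicular epidermis, which include Krt5 and Krt14 and so share their reads, gave a similar range, from -2.19 to -0.78.

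Relative to the reads of the matrix products, the direction turned. For each 1000 counts of the 9 inner root sheath genes, Msx2 had 6.29 counts in the control library and 8.75 after stretch (log2 ratio 0.48, interval 0.27 to 0.68). Gata3 had 10.6 and 38.8 counts on the same scale (1.87, interval 1.76 to 1.98). All 9 genes were higher by this measure, with intervals above 0 and a median of 1.09, and relative to the hair shaft keratins the median was 1.85 with 9 of 9 intervals above 0. The transcription factor genes were therefore lower in stretched skin by less than the summed genes of the structures they serve.

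Relative to 12 genes of the cell cycle the 9 genes divided. Msx1, Msx2, Foxn1, Dlx3 and Sox21 had intervals below 0, with Msx2 at -1.22 (interval -1.43 to -1.02) and Sox21 at -0.23 (-0.37 to -0.09). Gata3 (0.17, interval 0.06 to 0.29) and Ovol1 (0.18, 0.06 to 0.31) had intervals above 0, and those of Dlx4 and Cux1 included 0. All 12 cell cycle genes were themselves lower in stretched skin, with a median log2 fold change of -0.96 and, as an example, 2847 and 1126 counts for Mki67, a gene of dividing cells.

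**Figure D3:**
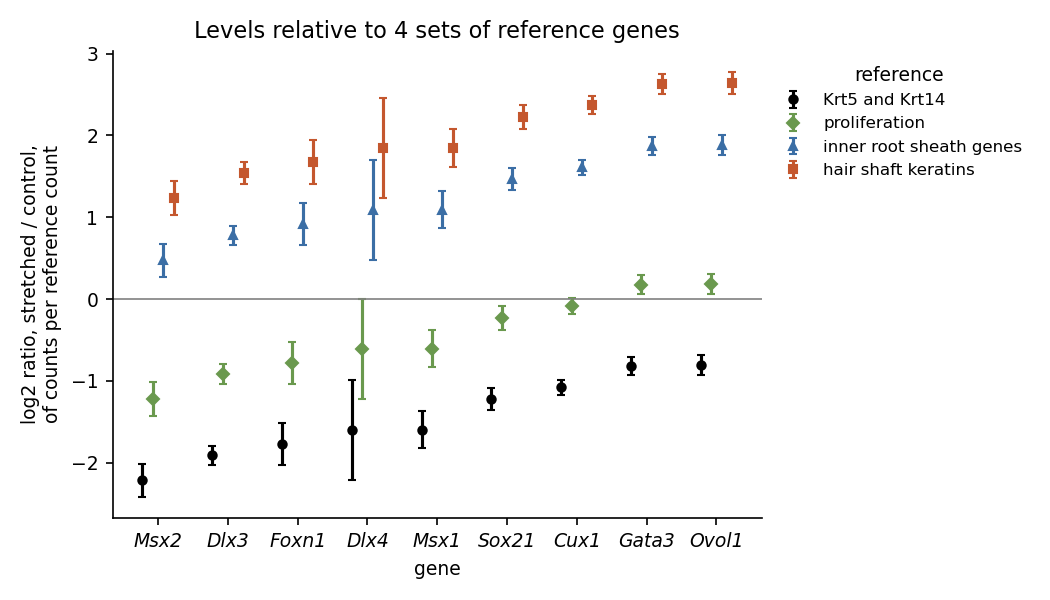
Log2 ratio (stretched over control) of the counts of each gene per count of 4 sets of reference genes, with 95% intervals of the ratio. The 9 genes lie below 0 relative to Krt5 and Krt14, on both sides of 0 relative to cell cycle genes, and above 0 relative to inner root sheath genes and hair shaft keratins.

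Other transcription factors of the follicle went the same way for the most part. Of 13 genes, 12 had intervals below 0 and 1 above, with a median log2 fold change of -1.09, and 5 were downregulated by the rule in the methods (2.44% of all genes tested). Hoxc13, a regulator of hair keratin genes, fell from 1341 counts to 301 (-1.87, interval -2.06 to -1.69). Lef1, the partner of β-catenin in WNT signalling, had 783 and 185 counts (-1.80, interval -2.04 to -1.57). Elf5, of the ETS family, had the lowest value, with 247 and 36 counts (-2.50, interval -3.04 to -1.99). Those with the most counts fell less, Hr (-0.13), which encodes the corepressor lost in hairless mice and which lay at the median of all genes, and Vdr (-0.69), the vitamin D receptor. Runx1 was the exception, with 450 and 444 counts (0.26, interval 0.07 to 0.45). Among these genes and the paralogs, the 3 whose fold change lay nearest to the median of the 9 genes were Foxe1 (-1.56), Sp6 (-1.60) and Foxq1 (-1.69). Over 2 libraries such likeness is a single number.

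Of 20 paralogs of the 9 genes, 12 exceeded 3 counts in either library, and 4 of the others were listed at 0 in both. Their median log2 fold change was -0.33, with 4 intervals below 0, 1 above and 7 that included 0. Over all genes above the floor, 33.5% of intervals lay below 0 and 18.1% above. Dlx2, which lies in another Dlx cluster together with Dlx1, fell from 290 counts to 69 (-1.79, interval -2.19 to -1.41), beside -1.79 for Dlx3. Dlx1 had 95 and 19 counts (-2.04, interval -2.83 to -1.32), and Dlx5 had 53 and 38 (-0.20, interval -0.84 to 0.43). Gata2 went the other way from Gata3, with 89 and 115 counts (0.65, interval 0.24 to 1.07), and Gata6 had 86 and 73 (0.04, interval -0.43 to 0.51). Foxn2, which had the most counts of the paralogs, had 600 and 497 (0.01, interval -0.17 to 0.18). Cux2 (14 and 2 counts) and Sox2 (18 and 9 counts) were thinly covered. The interval of Cux2 lay below 0 (-5.71 to -0.40), and that of Sox2 included 0 (-2.06 to 0.51).

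The signals that act on the matrix were lower by a smaller amount. Among 20 genes of the WNT, Hedgehog, BMP, Notch, EDA and FGF pathways, 15 had intervals below 0, 0 above and 5 that included 0, with a median of -0.61. Wnt5a, a WNT ligand of the dermal papilla and matrix, fell from 928 counts to 298 (-1.36, interval -1.55 to -1.17). Shh, the Hedgehog ligand made in the matrix, had 335 and 114 counts (-1.27, interval -1.59 to -0.96), and Jag1, a Notch ligand, had 2110 and 829 (-1.07, interval -1.18 to -0.95). These 3 were the downregulated genes of the list. Notch1 and Bmp4 (-1.03) also fell past 2-fold in CPM, but they were not called with 1 added to each FPKM. Ctnnb1, which encodes β-catenin, and Notch1 had the most counts, with values of -0.58 and -1.05. Wnt3, Wnt10a, Nog, Eda and Fgf7 did not differ detectably, and Wnt10a had the highest value (0.15, interval -0.04 to 0.34).

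The genes made by the differentiating matrix cells had the lowest medians of the lists measured. All 15 hair shaft keratins had intervals below 0, with a median log2 fold change of -3.83, and 13 of them passed the EV filter and were downregulated. Krt33a, a keratin of the hair cortex, fell from 3794 counts to 176 (-4.15), whereas Krt35, which had the most counts and is made early in the shaft, had 6503 and 977 (-2.45, interval -2.55 to -2.36). The lowest value was that of Krt83 (-4.47) and the highest that of Krt36 (-2.34). All 9 inner root sheath genes were downregulated, with a median of -2.50, among them Tchh, which encodes trichohyalin, with 61054 and 6885 counts (-2.87). The 8 other hair differentiation genes were also downregulated, with a median of -2.70, from Gprc5d (-3.81) to Lrrc15 (-1.36). Hair keratin genes are similar to one another in sequence, so reads may have been divided among them.

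**Figure D4:**
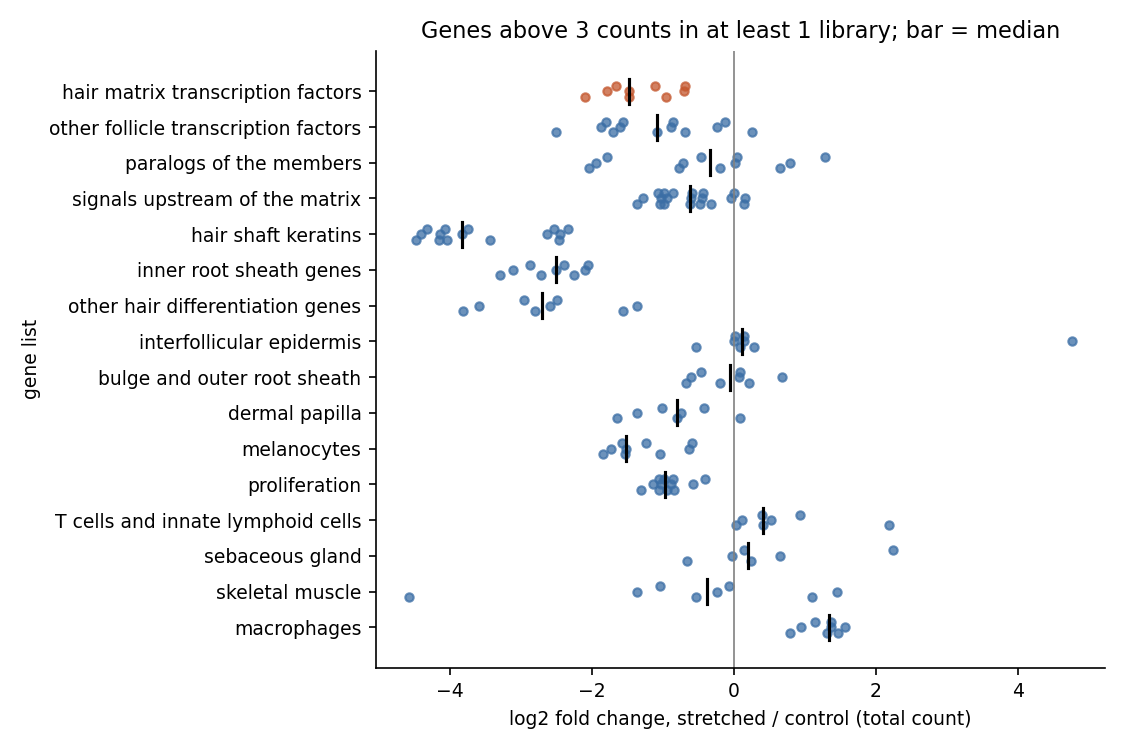
Log2 fold changes (stretched over control) of single genes in 16 lists, each point 1 gene above the floor of 3 counts, with the median as a bar. The 9 transcription factor genes (orange, median -1.48) lie between all genes, whose median was -0.12, and the inner root sheath genes (-2.50) and hair shaft keratins (-3.83).

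Genes of other cells in the skin also differed between the libraries, some lists lower and some higher, and their part in the falls was not tested. All 9 melanocyte genes had intervals below 0, with summed levels of 489.8 CPM (control) and 221.5 CPM (stretched). Their median log2 fold change was -1.52, close to the -1.48 of the 9 transcription factor genes. The T cell list matters for Gata3, and its 8 genes summed to 16.3 CPM and 26.7 CPM, with 2 intervals above 0, 0 below and Cd8a at the floor. The 8 macrophage genes all had intervals above 0, with a summed level of 828.8 and 1975 CPM. The 8 skeletal muscle genes made up 3.08% of control counts and 2.20% of counts after stretch, with 6 intervals below 0 and 2 above, from -4.57 for Myh4 to 1.46 for Myh2. No gene of these 4 lists was at 0 in both libraries.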

How the data were processed

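RNA from whole-layer skin was sequenced from one end (76 bases). Per the methods, TopHat2 placed the reads on mm10 after a quality filter (FASTX-Toolkit). The values deposited by the authors are raw counts per gene symbol. Which program counted them, on which annotation, and how it handled shared reads is not given in the sources used here. The library kit does not keep the strand.

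CPM and FPKM were computed from the counts, the total of each library and the union of exons in GENCODE M21, in which 23376 symbols matched by name and 657 by a synonym (388 had no length, Krt85 among them). Calls followed the rule of the methods (EV above 10, fold at least 2 or at most 0.5), and 1 was added to each FPKM, since the methods state no pseudocount. The study applied its rule to FPKM from Cufflinks, so the FPKM values and calls given here, made from the counts, are not the same quantities. Counts of 3 or fewer were set to 3 in fold changes. Single genes carry exact 95% Clopper-Pearson intervals, counts exact Poisson intervals, pairs of genes the exact conditional interval of the odds ratio, and ratios to reference genes the normal interval of the log ratio. These intervals cover counting error only and compare the libraries, not the conditions. The 9 genes, the lists and the rule for naming genes were chosen with earlier results of these data known. The rule names the 9 genes, the 3 follicle factors or paralogs nearest to their median and, in each list, the extreme values, the 2 highest counts and genes of the opposite direction. Not all of these are named in the text, and other genes of the lists were picked for their known roles, both after the values were seen. Flg is not analysed here. Motifs were chosen after the values were seen.

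As alternatives, libraries were scaled by Krt5 and Krt14, by upper quartile, by totals less the top 50 genes, by the median of ratios of DESeq2 1.42.0 or by the TMM factors of edgeR 4.0.16. Others were other pseudocounts, filters and lengths, and 1 CPM added to both values. The calls and intervals were also run on simulated counts. These held counting error only and no variation between animals or skin pieces, so they do not check a comparison of conditions. Python 3.11.15, scipy 1.17.1, pandas 2.3.3 and R 4.3.3 were used.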

Additional observations from a re-analysis of the deposited data

How the results depend on the processing

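The direction of all 9 transcription factor genes was the same under each alternative run. Rescaling moved every log2 fold change by the same amount, which was 0.10 (TMM), 0.11 (median of ratios), 0.11 (upper quartile) or 0.06 (totals less the top 50 genes). Their median ranged from -1.60 (scaled by Krt5 and Krt14) to -1.18 (1 CPM added to both values), and from -1.48 to -1.29 with each gene left out in turn. Of 55 values of single genes 7 left the counting interval. Scaling by Krt5 and Krt14 gave -1.91 for Dlx3, -0.82 for Gata3 and -1.08 for Cux1. Median of ratios gave -0.59 for Gata3 and -0.85 for Cux1, which was -0.86 with TMM and -0.85 with upper quartile. Between 4 and 6 of the 9 genes were downregulated, 4 with the 4 scalings and with intervals wholly past 2-fold (without Sox21), 4 with EV above 100 (without Foxn1) and 6 with CPM in place of FPKM (with Dlx4). Over all genes 285 were called up and 266 down, and the alternatives gave upregulated shares between 50.7% and 61.1%, the highest for median of ratios and for upper quartile (336 up, 214 down in each). EV above 100 left 137 and 130, since fewer genes are tested, and CPM gave 454 and 442. Summing Msx1 with Msx1os, chosen after seeing the data, gave -1.61.

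Of 106 medians of lists, 22 left the range set by the medians of the interval bounds, and each followed the shift of the scaling. In the order TMM, median of ratios and upper quartile they were -0.51, -0.50 and -0.51 for upstream signals, -2.40, -2.39 and -2.39 for inner root sheath genes, 0.21, 0.22 and 0.22 for epidermis, 0.30, 0.30 and 0.30 for sebaceous gland, -0.28, -0.27 and -0.27 for muscle, and 1.44, 1.45 and 1.45 for macrophages. Totals less the top 50 genes gave -2.43 for inner root sheath, 0.18 for epidermis and -0.32 for muscle. The bulge and outer root sheath median, with an interval across 0, was 0.055 with median of ratios. No paired analysis was possible because each condition has a single library, which also means that none can be dropped. Depth limits Dlx4 most, with 95 and 28 counts.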

Other observations

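The 8 genes of the bulge and outer root sheath had a median log2 fold change of -0.06, with 4 intervals below 0 and 3 above. Krt15, a keratin of bulge stem cells, fell from 15280 counts to 9127 (-0.46, interval -0.50 to -0.43), and Col17a1, a hemidesmosome collagen, had 11405 and 10922 (0.22). Nfatc1, which holds bulge stem cells at rest, had 826 and 1090 counts (0.68, interval 0.55 to 0.81), the highest value of the list. Lhx2 (-0.67) and Sox9 (-0.61) lay at the other end. The 6 sebaceous gland genes had a median of 0.19, with 4 intervals above 0, 1 below and 1 that included 0. Scd3, a fatty acid desaturase, had the highest value (163 and 631 counts, 2.23), Mc5r, a melanocortin receptor, the lowest (67 and 35 counts, -0.66, interval -1.29 to -0.05), and Krt79 the most counts (8026 and 7280, 0.14).

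Dermal papilla genes were lower, with 5 of 7 intervals below 0 and a median of -0.80. Wif1, a secreted WNT inhibitor, fell from 852 counts to 224 (-1.65, interval -1.87 to -1.43), and Sostdc1, a secreted inhibitor of BMP and WNT signals, from 792 to 324 (-1.01, interval -1.20 to -0.82). Vcan, which fibroblasts also make, had 2098 and 1826 counts (0.08, interval -0.01 to 0.17). In the melanocyte list Tyr, which encodes tyrosinase, had 389 and 97 counts (-1.72), and Mitf had 724 and 397 (-0.59). Krt2 stood apart among the epidermal genes, rising from 13 counts to 289 (4.76, interval 3.96 to 5.68).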
